A study of Mus musculus with 12 samples.

Results

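A set of 10 genes acting at the cell surface step of Wnt and Norrin signalling was followed in mouse yolk sacs labelled as Norrin and in wild type yolk sacs. They were the ligand gene Ndp, the coreceptor genes Lrp5, Lrp6 and Tspan12, the receptor turnover genes Znrf3, Rnf43, Lgr4 and Lgr5, and the alternative Wnt receptor genes Ror2 and Ryk. A member was read from the probe sets that the array annotation maps to that gene alone, and where a gene had several, the brightest by its mean over the 12 arrays was used, with the others given beside it. All 10 members were measured, by 17 probe sets in all, among 18193 genes tested. No filter on low values was applied in the main analysis.

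Norrin, the product of Ndp, is a secreted ligand that is not a Wnt but binds the receptor Frizzled4, and with Lrp5 or Lrp6 and the tetraspanin Tspan12 it raises beta-catenin. It is best known for its part in the growth of retinal vessels. Lrp5 and Lrp6 are the coreceptors that Wnt ligands share. Znrf3 and Rnf43 are membrane ubiquitin ligases that remove Frizzled receptors from the cell surface, and Lgr4 and Lgr5 are R-spondin receptors that take these ligases away and so keep Frizzled in place. Ror2 and Ryk bind Wnt ligands and are known above all for the branches of Wnt signalling that do not use beta-catenin.

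The yolk sac is the extraembryonic membrane around the early embryo, in which the first blood cells and vessels form. There were 4 groups of 3 arrays: Norrin yolk sacs at embryonic day 10.5 (E10.5), wild type yolk sacs at E10.5, Norrin yolk sacs at E8.5 and wild type yolk sacs at E8.5. Norrin embryos are labelled Z/Norrin, with ectopic Norrin from conditional over-expression according to the submitters. Neither the Cre line nor when it acts is named in the sources used here. All 4 groups had a mixed C57Bl6/129 background, and each array held RNA from yolk sacs pooled over 3 to 5 embryos, with sexes mixed, so an animal's own level cannot be read. Levels below are the deposited log2 expression values, in which a difference of 1 is a doubling, with the pools given in the order of their replicate numbers. The median gene had a mean level of 7.68, and the number of arrays limits the precision. In whole membranes, fewer cells of a type and less RNA per cell cannot be told apart.

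Promoter windows are shown for the ligand, for the member that passed the test in Norrin yolk sacs, and for Lgr4, whose Norrin pools lay on opposite sides of the wild type mean at the stages. Each runs from 250 bases before to 50 after the gene's start and is credited to RefSeq, mouse build GRCm38.p6. Capitals mark a match to a core motif of the TCF/LEF factors that act with beta-catenin, searched on both strands as CTTTGAA or CTTTGAT or CTTTGTA or CTTTGTT, which do not overlap each other. Of 32851 promoter windows of the same length, 16.9% held at least 1 match. The Ndp window lies at chrX:16911725-16912024 on the minus strand, the Ror2 window at chr13:53286075-53286374 on the minus strand, and the Lgr4 window at chr2:109917397-109917696 on the plus strand.
Ndp promoter: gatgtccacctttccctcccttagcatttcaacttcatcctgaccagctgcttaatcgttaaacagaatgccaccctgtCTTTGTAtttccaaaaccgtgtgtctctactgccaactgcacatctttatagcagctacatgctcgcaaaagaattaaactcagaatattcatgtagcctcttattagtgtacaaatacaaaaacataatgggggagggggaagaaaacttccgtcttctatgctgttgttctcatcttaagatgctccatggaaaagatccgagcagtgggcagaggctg
Ror2 promoter: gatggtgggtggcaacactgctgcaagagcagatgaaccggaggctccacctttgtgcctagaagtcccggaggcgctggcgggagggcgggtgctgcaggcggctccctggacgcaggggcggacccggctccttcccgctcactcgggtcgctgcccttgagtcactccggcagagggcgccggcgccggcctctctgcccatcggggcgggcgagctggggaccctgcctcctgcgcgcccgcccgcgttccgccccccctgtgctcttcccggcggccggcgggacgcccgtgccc
Lgr4 promoter: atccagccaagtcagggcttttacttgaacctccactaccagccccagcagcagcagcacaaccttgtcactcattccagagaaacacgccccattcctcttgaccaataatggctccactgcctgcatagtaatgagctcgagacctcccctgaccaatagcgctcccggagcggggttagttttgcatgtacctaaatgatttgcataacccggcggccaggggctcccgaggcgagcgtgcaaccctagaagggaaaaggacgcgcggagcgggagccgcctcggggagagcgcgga
The Ndp window held 1 match, CTTTGTA, at −171 to −165 from the start on the strand of the gene. Its GC content was 43.0% with 5 CpG. The Ror2 window had a GC content of 74.7% and 32 CpG, and the Lgr4 window 58.3% and 18 CpG, against medians of 52.7% and 7 CpG over all windows. Neither of these holds any of the 4 strings in its 300 bases. Windows were at hand for 6 of the 10 members, and the others (Lrp5, Lrp6, Znrf3 and Lgr5) were not analysed here.

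Of the 10 members, 1 passed the test at E10.5 and 0 at E8.5. At E10.5 Ror2 was higher in Norrin yolk sacs than in wild type, by 0.89 (log2), or 1.86-fold. The test was limma over all genes with Benjamini-Hochberg adjustment, called at an adjusted p under 0.05. It called 4.07% of all genes at E10.5 (1.85% higher in Norrin) and 0.077% at E8.5. By unadjusted p, 4 members were under 0.05 at E10.5 (Lrp5, Lgr4, Lgr5 and Ror2) and 2 at E8.5 (Rnf43 and Ror2), where the same rule took 14.0% and 7.22% of all genes. The median member differed by 0.07 at E10.5 and 0.05 at E8.5, against −0.00 and −0.02 over all genes tested, and 8 and 6 of the 10 members lay above 0.

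Pools of the same replicate number deviated together within each stage, and with the number as a block within the stage the test called 13.2% of all genes at E10.5 (6.39% higher and 6.8% lower in Norrin) and 1.41% at E8.5. With the block, 3 members were called at E10.5 (Ror2 and Lgr5 higher, Lrp5 lower) and 0 at E8.5. Norrin and wild type pools did not overlap at E10.5 for 5 members, of which Znrf3, Lgr4, Lgr5 and Ror2 lay above wild type and Lrp5 below, and 22.9% of all genes did not overlap there (11.4% above and 11.5% below). At E8.5 they did not overlap for Rnf43 and Ror2, both above wild type, against 11.9% of all genes (5.89% above).

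**Figure D1:**
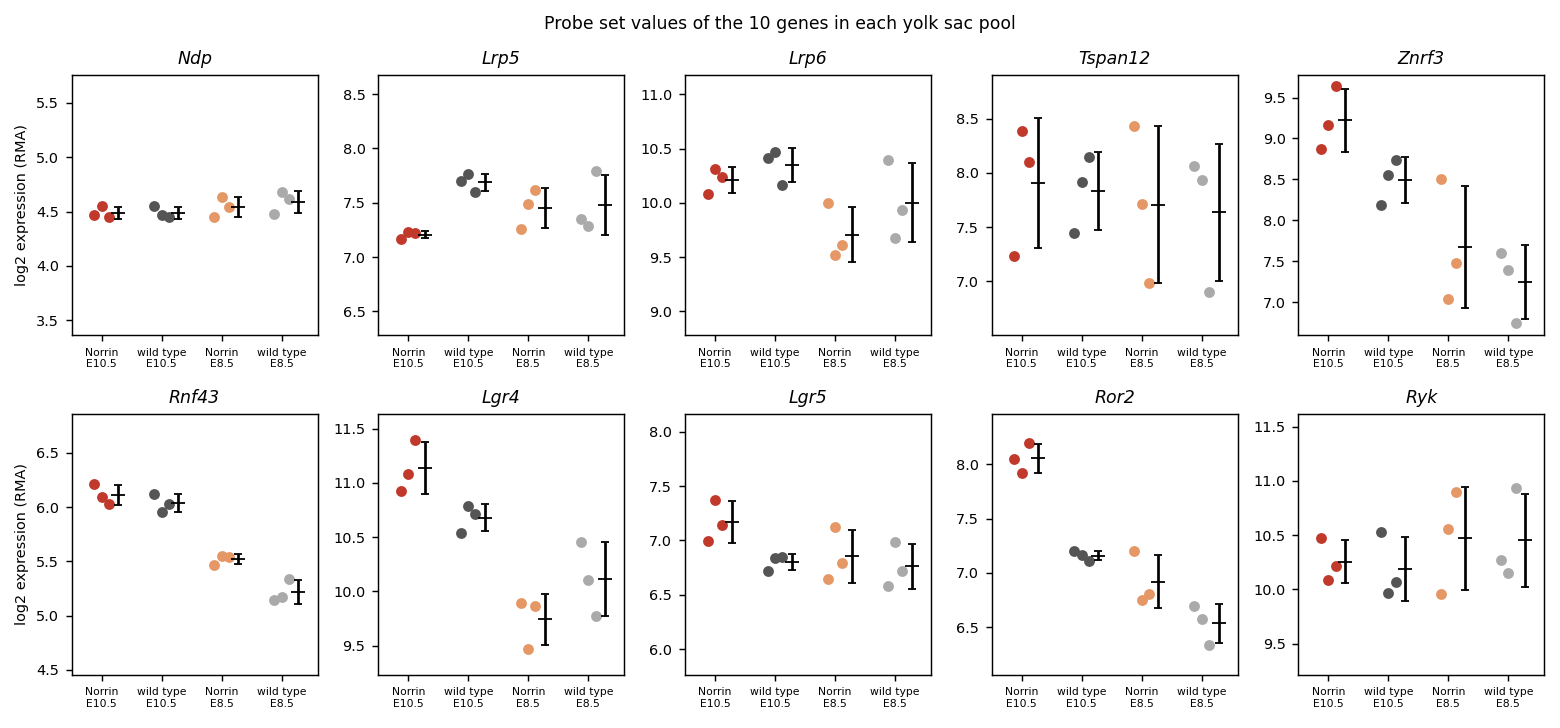
Log2 expression (RMA) of the 10 genes, 1 panel per gene, with the 4 groups along the horizontal axis, 3 points for the pools and a dash with bars for the mean ± SD. Ror2 pools at E10.5 lie at 7.92 to 8.19 in Norrin and 7.11 to 7.20 in wild type, and the Ndp pools lie at 4.45 to 4.68 over all 4 groups.

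Ndp, which encodes Norrin itself (chrX:16885521-16911774, GRCm38.p6), was read by 1 probe set with a dim signal in all 4 groups. Its values were 4.47, 4.55 and 4.45 in Norrin pools at E10.5, against 4.55, 4.47 and 4.45 in wild type pools. At E8.5 they were 4.45, 4.64 and 4.54 in Norrin pools and 4.48, 4.68 and 4.61 in wild type pools. The groups overlapped at both stages, and in every pool the level lay between percentiles 5.38 and 8.62 of the genes on that array, which describes the signal and not the abundance against other genes. The difference was 0.00 at E10.5 (95% interval −0.23 to 0.23, adjusted p = 0.999) and −0.05 at E8.5 (−0.27 to 0.18, adjusted p = 0.923). Which part of Ndp the probe set reads, and whether the over-expression transcript holds it, is not given in the sources used here, so it does not check the genotype labels.

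Fzd4, the Norrin receptor (chr7:89404366-89410110), is no member, but is the receptor the coreceptors serve. It read 9.95, 9.76 and 10.10 in Norrin pools at E10.5, against 10.08, 9.80 and 10.14 in wild type pools. At E8.5 it read 9.70, 9.56 and 8.97 in Norrin pools and 9.70, 9.37 and 8.77 in wild type pools. The groups overlapped at both stages. The difference was −0.07 at E10.5 (−0.58 to 0.45, adjusted p = 0.973) and 0.13 at E8.5 (−0.39 to 0.64, adjusted p = 0.908). Other Fzd4 probe sets differed by 0.07 and 0.20 at E10.5 and by 0.005 and 0.30 at E8.5, with overlap throughout.

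Of the 3 coreceptor genes, Lrp5 (chr19:3584825-3686585) was the one whose genotypes did not overlap at E10.5. At E10.5 it read 7.17, 7.23 and 7.22 in Norrin pools, against 7.70, 7.76 and 7.60 in wild type pools. The highest Norrin pool lay below the lowest wild type pool. The difference was −0.48 (SE 0.14, 95% interval −0.80 to −0.17), and the numbered pairs differed by −0.53, −0.54 and −0.38. It did not pass the main test (adjusted p = 0.100 by limma) and passed with the replicate block (adjusted p = 0.0130). It also passed in a fit without wild type E8.5 replicate 3 (adjusted p = 0.0337), an array of the other stage that enters only the estimate of spread, in a fit to E10.5 alone (0.0339) and after quantile normalization (0.0485). At E8.5 Lrp5 read 7.26, 7.49 and 7.62 in Norrin pools and 7.35, 7.29 and 7.79 in wild type pools, with overlap and a difference of −0.02 (−0.34 to 0.29, adjusted p = 0.976).

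Lrp6, the close relative of Lrp5 (chr6:134446476-134566913), overlapped between genotypes. Its E10.5 values were 10.08, 10.31 and 10.24 in Norrin pools, against 10.42, 10.46 and 10.17 in wild type pools. The difference was −0.14 (−0.54 to 0.27, adjusted p = 0.897). At E8.5 it read 9.996, 9.52 and 9.61 in Norrin pools and 10.40, 9.67 and 9.94 in wild type pools, with a difference of −0.29 (−0.70 to 0.11, adjusted p = 0.741). Its second probe set differed by −0.06 at E10.5 and 0.10 at E8.5.

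Tspan12, the tetraspanin that helps Norrin signal through Frizzled4 (chr6:21771391-21879596), had the widest spread between pools of the 10 members at E10.5. It read 7.23, 8.38 and 8.10 in Norrin pools, against 7.44, 7.92 and 8.14 in wild type pools. At E8.5 it read 8.43, 7.71 and 6.99 in Norrin pools and 8.06, 7.94 and 6.91 in wild type pools. In both genotypes replicate 1 was the lowest at E10.5 and replicate 3 the lowest at E8.5, and the genotypes overlapped. The differences were 0.07 at each stage, with 95% intervals of −0.81 to 0.95 at E10.5 and −0.80 to 0.95 at E8.5. With the replicate block the intervals were −0.27 to 0.41 at E10.5 and −0.26 to 0.41 at E8.5, and the gene was not called.

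Znrf3 (chr11:5276329-5444847), a ligase that removes Frizzled, separated the genotypes at E10.5 without passing the test. It read 8.87, 9.16 and 9.64 in Norrin pools, against 8.19, 8.55 and 8.74 in wild type pools, and the lowest Norrin pool lay above the highest wild type pool. The difference was 0.73 (SE 0.34, −0.01 to 1.47, adjusted p = 0.368, and 0.0516 with the replicate block). Its second probe set also had no overlap at E10.5, at 6.67, 6.74 and 6.40 in Norrin pools and 6.18, 6.16 and 6.16 in wild type pools. That probe set differed by 0.43 (adjusted p = 0.0886 over 34945 probe sets). At E8.5 the main probe set read 8.50, 7.04 and 7.48 in Norrin pools and 7.59, 7.40 and 6.74 in wild type pools, with overlap and a difference of 0.43 (−0.31 to 1.17, adjusted p = 0.776). The second probe set did not overlap there either, at 6.13, 6.10 and 6.17 in Norrin pools and 5.80, 6.08 and 5.86 in wild type pools, a difference of 0.22 (adjusted p = 0.788 over 34945 probe sets).

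Rnf43, the other ligase (chr11:87663087-87735539), separated the genotypes at E8.5 without passing the test. It read 5.47, 5.55 and 5.54 in Norrin pools, against 5.14, 5.17 and 5.34 in wild type pools. All 3 Norrin pools lay above all 3 wild type pools, by 0.30 on average (0.07 to 0.54, unadjusted p = 0.0149), but the adjusted p was 0.596 in limma and 0.112 with the replicate block. Its E10.5 values were 6.21, 6.09 and 6.03 in Norrin pools and 6.12, 5.95 and 6.03 in wild type pools. There the groups overlapped, and the difference was 0.07 (−0.16 to 0.31, adjusted p = 0.908). Rnf43 was read by 1 probe set with a dim signal, between percentiles 13.4 and 22.7 of the genes on an array over all pools.

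Lgr4, an R-spondin receptor (chr2:109917647-110014257), had a Norrin mean above wild type at E10.5 and below it at E8.5, without passing the test at either. At E10.5 it read 10.92, 11.08 and 11.40 in Norrin pools, against 10.54, 10.78 and 10.72 in wild type pools. The Norrin pools lay above the wild type pools without overlap, and the difference was 0.45 (SE 0.19, 0.05 to 0.86, adjusted p = 0.277, and 0.0790 with the replicate block). At E8.5 it read 9.89, 9.47 and 9.87 in Norrin pools and 10.46, 10.11 and 9.78 in wild type pools. All 3 Norrin pools lay below the wild type mean of 10.12 there, and the difference was −0.37 (−0.78 to 0.04, adjusted p = 0.707). The groups overlapped at E8.5, as wild type replicate 3 lay below Norrin replicates 1 and 3. Its second probe set differed by 0.05 at E10.5 and −0.19 at E8.5, with overlap at both stages.

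Lgr5, the other R-spondin receptor among the 10 (chr10:115450314-115587780), marks stem cells in several epithelia. At E10.5 it read 6.995, 7.37 and 7.14 in Norrin pools, against 6.72, 6.84 and 6.85 in wild type pools, and the groups did not overlap. The difference was 0.37 (SE 0.16, 0.03 to 0.71), which did not pass the main test (adjusted p = 0.291) and passed with the replicate block (adjusted p = 0.0259). The second Lgr5 probe set ran the other way, at 6.44, 6.55 and 6.42 in Norrin pools and 6.67, 6.52 and 6.51 in wild type pools, a difference of −0.09 (adjusted p = 0.847). At E8.5 the main probe set read 6.65, 7.13 and 6.79 in Norrin pools and 6.58, 6.98 and 6.72 in wild type pools, a difference of 0.09 (adjusted p = 0.899). The second probe set did not overlap at E8.5, at 5.97, 5.89 and 5.93 in Norrin pools and 6.05, 6.05 and 6.12 in wild type pools, and lay lower in Norrin by −0.14 (adjusted p = 0.806 over 34945 probe sets).

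**Figure D2:**
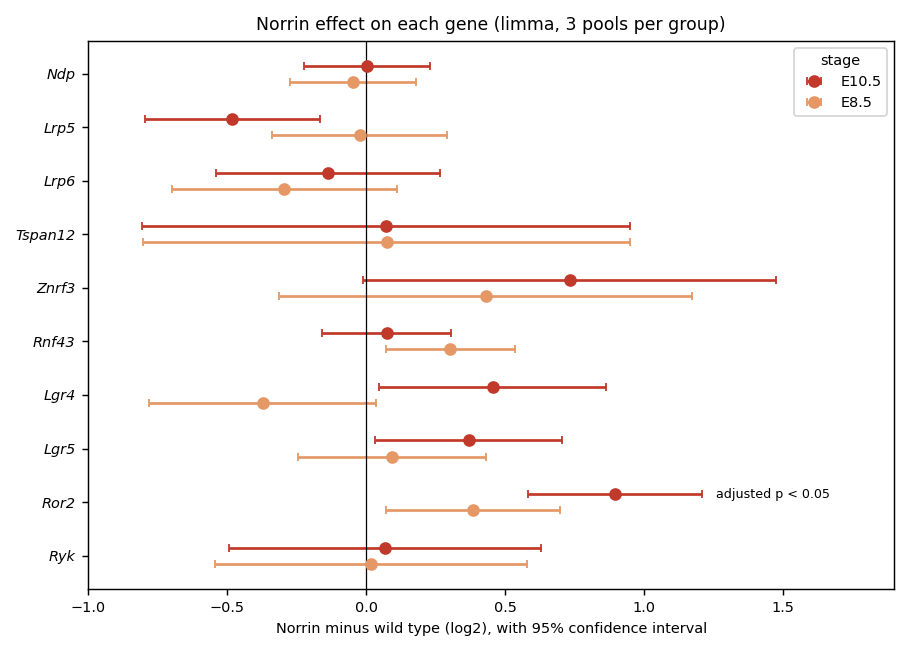
Norrin minus wild type difference (log2, horizontal axis) of each gene at E10.5 and E8.5, as points with limma 95% confidence intervals as bars (3 pools per group). At E10.5 Ror2 passed the adjusted test at 0.89, the Lrp5 interval lies below 0, and the Lgr4 and Lgr5 intervals lie above 0.

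Ror2 (chr13:53109317-53286124), a receptor for Wnt5a, was the member that rose. At E10.5 it read 8.05, 7.92 and 8.19 in Norrin pools, against 7.20, 7.16 and 7.11 in wild type pools. All 3 Norrin pools lay above all 3 wild type pools, and the numbered pairs differed by 0.85, 0.76 and 1.08. The difference was 0.89 (SE 0.14, 95% interval 0.58 to 1.21), or 1.86-fold, with an adjusted p of 0.00487 by limma. Leaving out any single array gave 0.83 to 0.96 (adjusted p 0.00301 to 0.0299).

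At E8.5 Ror2 read 7.21, 6.75 and 6.80 in Norrin pools and 6.69, 6.58 and 6.34 in wild type pools. The lowest Norrin pool lay above the highest wild type pool there too. The difference was 0.38 (0.07 to 0.70, unadjusted p = 0.0201, adjusted p = 0.615), which did not pass. The second Ror2 probe set read 8.06, 7.10 and 8.25 in Norrin pools at E10.5, against 7.15, 6.79 and 7.21 in wild type pools. It differed by 0.75, but replicate 2 of Norrin lay within the wild type range and the adjusted p was 0.192 over 34945 probe sets. At E8.5 the second probe set overlapped, at 5.98, 6.20 and 6.17 in Norrin pools and 5.76, 6.11 and 6.31 in wild type pools. The difference there was 0.06 (adjusted p = 0.972 over 34945 probe sets), so it did not share the separation of the main probe set.

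Ryk, a Wnt receptor with an inactive kinase domain (chr9:102834920-102908307), overlapped between genotypes at both stages. Its E10.5 values were 10.47, 10.08 and 10.22 in Norrin pools, against 10.53, 9.97 and 10.07 in wild type pools, a difference of 0.07 (−0.49 to 0.63, adjusted p = 0.977). At E8.5 it read 9.96, 10.56 and 10.89 in Norrin pools and 10.27, 10.15 and 10.94 in wild type pools, a difference of 0.02 (adjusted p = 0.991). A second Ryk probe set had no overlap at E10.5 and differed by 0.30 (adjusted p = 0.263), and the third one differed by 0.10.

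**Figure D3:**
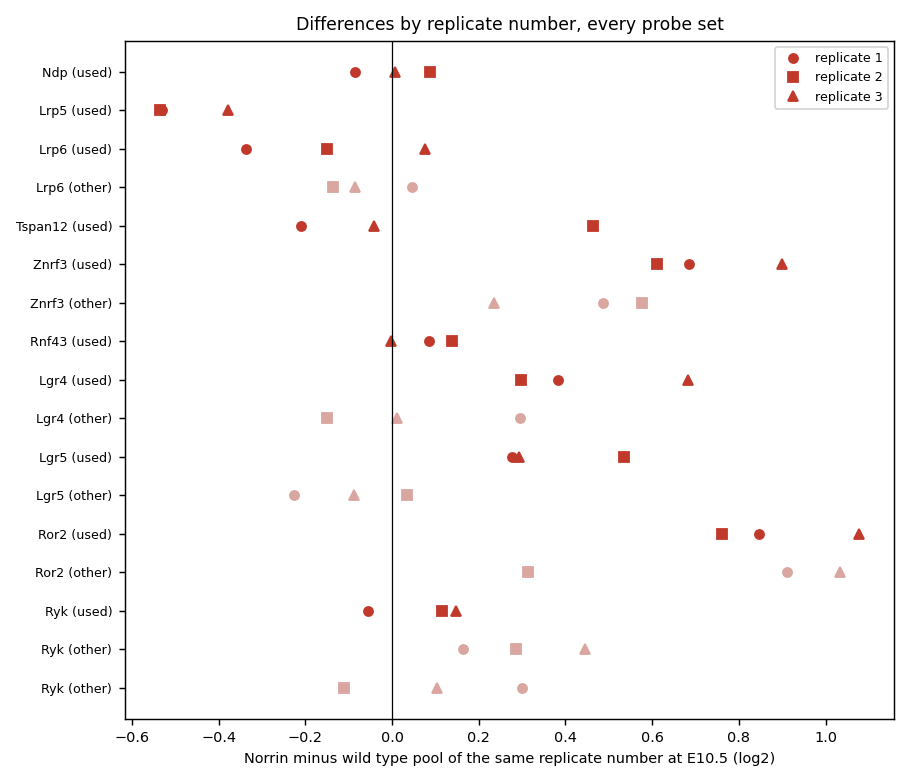
Norrin minus wild type difference (log2) at E10.5 between pools of the same replicate number, for each of the 17 probe sets, with a marker shape per number and dark points for the probe set used. The Ror2 points of the probe set used lie at 0.85, 0.76 and 1.08, and those of Lrp5 at −0.53, −0.54 and −0.38.

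The Norrin difference at E10.5 minus that at E8.5 was tested for each member as an interaction. None of the 10 passed (0.0934% of all genes did), and none passed with the replicate block (2.07%). By unadjusted p, 3 members were under 0.05, against 7.01% of all genes. The largest of them was Lgr4 at 0.83 (SE 0.27, adjusted p = 0.397, and 0.0838 with the block). Ror2 had 0.51 (adjusted p = 0.593) and Lrp5 −0.46 (adjusted p = 0.695), so for no member was the Norrin effect shown to differ between the stages.

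Between the stages, several members were higher at E10.5 than at E8.5. In the Norrin yolk sacs Znrf3, Lgr4, Ror2, Rnf43 and Lrp6 were called higher, where 37.9% of all genes were called (28.2% higher and 9.69% lower). In wild type Znrf3, Rnf43, Ror2 and Lgr4 were called higher, where 32.5% of all genes were called (25.4% higher and 7.12% lower). Stage cannot be told apart from the normalization run, because arrays within a stage share 603 to 1734 exact values per pair and the 36 pairs across stages share at most 2. The median of all genes was higher at E10.5 by 0.15 in Norrin and 0.14 in wild type as deposited. It was lower after centring each array on its median, by −0.21 and −0.16. After quantile-normalizing the 12 arrays together it was −0.05 in both.

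Called genes were higher at E10.5 in 74.4% of cases in Norrin and 78.1% in wild type as deposited, in 28.3% and 32.7% after centring, and in 46.0% and 46.3% after quantile normalization, so the split of calls by direction depends on the scaling. Under all 3 scalings, Znrf3, Lgr4 and Ror2 were called higher at E10.5 in Norrin, and in wild type only Rnf43 was, from a dim probe set. Relative to the median gene and as deposited, Znrf3 lay higher at E10.5 by 1.40 in Norrin and 1.11 in wild type. Lgr4 lay higher by 1.24 and 0.43, Ror2 by 0.98 and 0.49, and Rnf43 by 0.44 and 0.68. As deposited and not set against the median gene, the second Znrf3 probe set differed by 0.47 in Norrin (adjusted p = 0.00899) and 0.26 in wild type (adjusted p = 0.122, not called). The second probe set of Lgr4 differed by 0.93 and 0.69, and that of Ror2 by 1.69 and 0.99.

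The calls of some other members depended on the scaling or on single arrays. Lrp6 in Norrin was called only as deposited (0.50, adjusted p = 0.0495) and after quantile normalization (0.51, adjusted p = 0.0219), and the call as deposited was lost without any 1 of the 6 E10.5 arrays, Norrin E8.5 replicate 2 or 3, or wild type E8.5 replicate 3 (adjusted p 0.0510 to 0.165). The second Lrp6 probe set ran the other way, by −0.43 in Norrin (adjusted p = 0.111) and −0.27 in wild type (adjusted p = 0.325). With the mean of the Lrp6 probe sets the difference in Norrin was 0.036. Lrp5 in Norrin was called lower at E10.5 after centring (−0.61) and after quantile normalization (−0.57), and was not called as deposited (−0.25, adjusted p = 0.196). Ndp was called lower at E10.5 under both of these scalings in both genotypes, by −0.41 and −0.31 in Norrin and −0.40 and −0.29 in wild type, and was not called as deposited. In wild type Lgr4 was not called without E10.5 replicate 2 or 3, or without E8.5 replicate 2 or 3 (adjusted p 0.0858 to 0.115), and Znrf3 was not without E10.5 replicate 3 (adjusted p = 0.0557). Fzd4 was called higher at E10.5 in wild type (0.73, adjusted p = 0.0337) as deposited, but not after centring or without E8.5 replicate 2 or 3 or E10.5 replicate 1 or 3 (adjusted p 0.0635 to 0.206). Other Fzd4 probe sets gave 0.14 (adjusted p = 0.353) and 1.51 (adjusted p = 0.00185) in wild type, and 0.20 (adjusted p = 0.169) and 1.41 (adjusted p = 0.00243) in Norrin. Calls were gained in wild type for Lrp5 without E8.5 replicate 3 (0.37, adjusted p = 0.0444) and for Lrp6 without E8.5 replicate 1 (0.54, adjusted p = 0.0353), and in Norrin for Fzd4 without wild type E8.5 replicate 3 (adjusted p = 0.0427). With the mean of probe sets, Lgr5 (0.43, adjusted p = 0.00526) and Fzd4 (0.71, adjusted p = 0.00243) were called in Norrin. The second Lgr5 probe set was called higher at E10.5 as deposited, by 0.54 in Norrin (adjusted p = 0.00139) and 0.49 in wild type (adjusted p = 0.00288). The replicate block lies within a stage and cannot be applied to these comparisons. Cell type markers, taken up further below, also differed between the stages as deposited. Their median difference was 1.13 in Norrin and 0.80 in wild type for mesenchyme, and 2.11 and 1.33 for decidua. It was 0.95 and 1.51 for macrophage, −0.64 and −0.04 for erythroid, and −0.34 and −0.48 for endothelial markers. The part of such cells in the stage differences of the members was not tested.

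**Figure D4:**
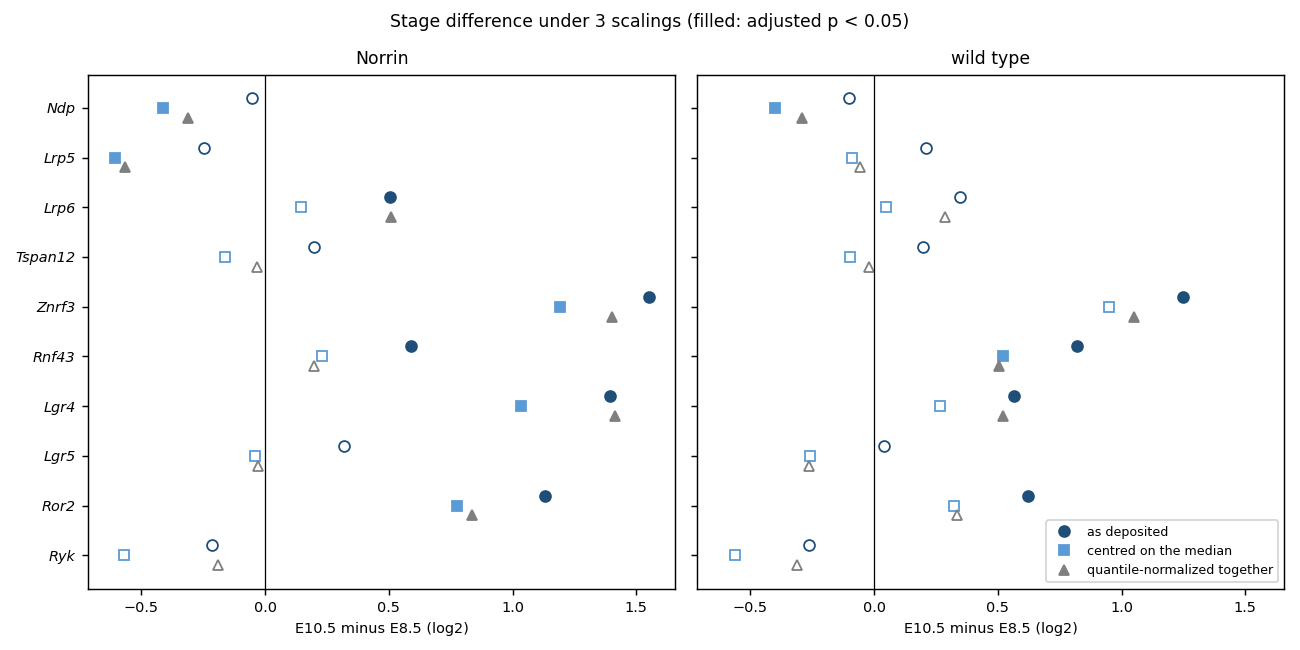
E10.5 minus E8.5 difference (log2, horizontal axis) of each gene in Norrin (left) and wild type (right) under 3 scalings, with filled markers for an adjusted p under the threshold. Znrf3 in Norrin lies at 1.55 as deposited, 1.19 after centring and 1.40 after quantile normalization, all filled, and Lgr5 in wild type at 0.04, −0.26 and −0.26, all open.

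The genes that act with the members were taken from fixed lists of the pathway. For scale, the main test called 337 of 18193 genes higher in Norrin at E10.5 and 404 lower. At E10.5 the Frizzled receptor list held 10 genes, of which 3 rose in Norrin and 0 fell, and its median difference was 0.18 against −0.00 over all genes tested. Fzd6 rose by 0.94 (9.59 ± 0.38 in Norrin pools and 8.65 ± 0.10 in wild type pools, SD, n = 3 each, adjusted p = 0.0154 by limma). Fzd2 rose by 0.84 (10.07 ± 0.33 and 9.23 ± 0.09, adjusted p = 0.0191). Fzd7 rose by 0.77 (9.33 ± 0.09 and 8.57 ± 0.12, adjusted p = 0.0138). Other probe sets of Fzd6 differed by 0.65 and −0.05, those of Fzd2 by 0.69 and 0.61, and that of Fzd7 by 0.48. Fzd6, Fzd2 and Fzd7 each lost the call without some single arrays: Fzd6 without E10.5 Norrin replicate 2 or 3 or wild type replicate 1 or 3 (adjusted p 0.0531 to 0.0804), Fzd2 without Norrin replicate 1 or 3 or wild type replicate 2 or 3 (0.0605 to 0.0769), and Fzd7 without Norrin replicate 1 or wild type replicate 2 (0.0601 to 0.0603). With the replicate block 4 of the list were called, Fzd3 being added.

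Of 11 measured genes that regulate Lrp5 and Lrp6 (chaperone, inhibitors and kinases), 1 rose at E10.5 and 0 fell, with a median of 0.11. The gene was Dkk1, whose product binds Lrp6 and blocks Wnt signalling. It averaged 7.82 ± 0.57 in Norrin pools and 6.03 ± 0.33 in wild type pools (SD, n = 3 each), a difference of 1.78 (adjusted p = 0.00326 by limma). The other Dkk1 probe set differed by 1.06. In the list of R-spondins and receptor turnover partners 1 of 9 rose and 0 fell, with a median of 0.14. This was Rspo1, a ligand of Lgr4 and Lgr5, with 7.35 ± 0.24 in Norrin pools and 6.29 ± 0.38 in wild type pools (SD, n = 3 each), a difference of 1.06 (adjusted p = 0.0204). The Rspo1 call was lost without E10.5 Norrin replicate 1 or 3 or wild type replicate 2 or 3 (adjusted p 0.0786 to 0.0905). With the block 2 of that list rose, Rspo1 and Rspo3.

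Among 9 partners of Ror and Ryk, 1 rose at E10.5 and 0 fell, with a median of 0.18. It was Prickle1, a cytoplasmic protein of planar cell polarity, at 9.80 ± 0.10 in Norrin pools and 8.84 ± 0.13 in wild type pools (SD, n = 3 each), a difference of 0.95 (adjusted p = 0.00298 by limma). Its other probe sets differed by 0.20 and 0.01, and with the mean of all its probe sets the difference was 0.39 and the call was lost (adjusted p = 0.0571). With the block Ptk7, a Wnt coreceptor, was called as well. Of the Wnt7 coreceptors 0 of 2 passed, Reck differing by 0.50 (adjusted p = 0.524). Of 6 feedback genes of beta-catenin 0 passed, although all 6 lay above 0 with a median of 0.27, and Apcdd1 differed by 0.94 (adjusted p = 0.0579 by limma, and 0.00212 with the replicate block). Other probe sets of Apcdd1 differed by 0.74, 0.40, 0.21, 0.40 and 1.11, and of these only the last was called (limma, adjusted p = 0.0485 over 34945 probe sets). Apcdd1 also passed without replicate 3 of wild type (0.00714) or Norrin (0.0443) at E8.5, and in 4 other fits: E10.5 alone, quantile normalization, the mean of probe sets, and trend and robust eBayes (adjusted p 0.00847 to 0.0491).

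At E8.5 none of these lists had a gene that passed the main test. The largest differences were Celsr1, a cadherin of planar cell polarity, at 1.24 (adjusted p = 0.0933), Dkk1 at 1.18 (adjusted p = 0.234) and Axin2, a target and inhibitor in the beta-catenin pathway, at 1.07 (adjusted p = 0.0701). Each passed with the replicate block, with an adjusted p of 0.0173 for Celsr1, 0.0215 for Dkk1 and 0.0392 for Axin2. The other probe set differed by 0.65 for Dkk1 and by 0.56 for Axin2. Celsr1 also passed without Norrin E10.5 replicate 1 (adjusted p = 0.0478), and Axin2 without Norrin E8.5 replicate 3 (adjusted p = 0.0202) and with trend and robust eBayes (adjusted p = 0.0458). Fzd2 was 0.41 (adjusted p = 0.678), Dvl1 −0.35 (adjusted p = 0.748) and Adgra2 −0.16 (adjusted p = 0.892).

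Markers of the cells in these membranes moved with the genotype at E10.5, and their part in the Ror2 result was not tested. Among all 18193 genes the main test called 337 higher in Norrin there and 404 lower. The mean log2 level of 8 mesenchyme markers was 11.68 to 11.70 in Norrin pools and 11.14 to 11.31 in wild type pools, with 1 of the 8 (Pdgfra) called higher and all 8 above 0. The mean of 9 visceral endoderm markers was 13.23 to 13.29 and 13.61 to 13.76, with 3 (Apoa1, Apoa4 and Hnf4a) lower. The mean of 7 erythroid markers was 10.78 to 10.92 and 11.43 to 12.24, with 4 lower, and that of 6 macrophage markers 7.79 to 8.62 and 8.50 to 8.92, with 1 lower. The means of 8 parietal endoderm markers were 10.92 to 11.13 and 10.47 to 10.70, with 2 higher. The means of 6 decidua markers were 9.16 to 9.69 and 8.26 to 8.66, with 2 higher.

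Trophoblast markers (4 measured of 8) were highest in Norrin E10.5 replicate 2, at 9.92, against 8.23 in each of the other Norrin pools and 7.36 to 8.13 in wild type pools, and no gene of that list was called. Without that pool the Ror2 difference was 0.96 (adjusted p = 0.00932). That pool had the lowest Ror2 value of the Norrin E10.5 pools, and the other Norrin pools still lay above the wild type pools for these markers. The part of trophoblast cells in the Ror2 result was therefore not tested by leaving it out. At E8.5, where Norrin replicate 2 again stood highest at 8.92, the wild type pools lay at 7.50 to 7.79. Of 8 endothelial markers 0 were called, with means of 8.18 to 8.76 in Norrin pools and 8.19 to 8.76 in wild type pools at E10.5, and of 7 neural markers of the embryo 0 were called, with means of 5.24 to 5.28 and 5.04 to 5.20. With the replicate block 1 gene of each of these lists was called higher at E10.5 (Cldn5 and Sox2), as were 3 mesenchyme, 5 parietal endoderm and 3 decidua markers, and 5 visceral endoderm and 6 erythroid markers were lower. Over all genes the block called 6.39% higher and 6.8% lower at that stage. Dcn stands in both the mesenchyme and the decidua list, and Hand1 in both the mesenchyme and the trophoblast list. At E8.5 the visceral endoderm mean was 13.07 to 13.32 in Norrin pools and 13.62 to 13.67 in wild type pools, with 1 marker (Apoa4) lower, and no gene of the other marker lists was called there by the main test. With the block at E8.5, 3 visceral endoderm markers (Afp, Apoa4 and Apob) were lower, and Pdgfra of the mesenchyme list and Igfbp1 of the decidua list were higher. The block called 1.41% of all genes at E8.5.

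Genes whose profile was most like that of Ror2 over the 12 arrays were found by the root mean square difference after centring each gene on its mean within each stage. Among 9097 genes whose mean level was at or above that of the median gene, the closest were Tgfbr3 (0.105), Lrig2 (0.110) and Plekha1 (0.113), against a median of 0.41. These genes were picked for being close to Ror2 on the same arrays. Norrin differences like those of Ror2, and their small adjusted p, therefore follow from the choice and are no separate result. Tgfbr3 differed between Norrin and wild type by 0.94 at E10.5 (adjusted p = 0.00582 by limma) and 0.35 at E8.5. Lrig2 differed by 0.85 (adjusted p = 0.00516) and 0.31, and Plekha1 by 0.68 (adjusted p = 0.0176) and 0.42.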

How the data were processed

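RNA of 12 yolk sac pools was measured on Affymetrix mouse expression arrays. The authors deposited log2 expression values from RMA (no version is stated), per the submitters' processing notes. RMA quantile-normalizes arrays within a run, and the values showed 1 run per stage. Array medians were 6.99 to 7.01 in Norrin E10.5, 6.97 to 6.98 in wild type E10.5, 6.59 to 6.67 in Norrin E8.5 and 6.62 to 6.73 in wild type E8.5. Pools of a group correlated at r = 0.975 to 0.992, and p-values measure the spread between pools.

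Of 45101 probe sets, 64 controls, 932 with several genes and 9160 unnamed here were left out. Of the other 34945, each with 1 gene, 34741 could be matched to RefSeq through their gene ID. Positions are those of RefSeq genes, not of probes. A model with 1 mean per group was fitted with limma 3.58.1 (R 4.3.3; 8 residual and 4.17 prior degrees of freedom). The two-sided p-values were adjusted by Benjamini-Hochberg over 18193 genes, or over 34945 probe sets where a probe set other than the one used is given, with a threshold of 0.05. Every adjusted p in the text is from limma. The fit was tested on simulated data.

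Pools of the same number deviated together (r = 0.726, 0.318 and 0.730 at E8.5 and 0.506, 0.209 and 0.219 at E10.5), so the replicate number was fitted as a block within the stage as an alternative. Pools of different numbers had r of −0.721 to 0.296 at E8.5 and −0.347 to 0.156 at E10.5, so some same-number pairs stood little above these. This pairing comes from the data and not from the labels. Other alternatives were arrays centred on their median, the 12 arrays quantile-normalized together, each stage fitted alone, a filter on the lowest quartile of genes, the mean of a gene's probe sets, eBayes with trend and robust, and leaving out each array. All members and Fzd4 are named; from each pathway list up to 3 called genes with the largest change are named, or the 1 with the largest change where none was called. Members and lists were chosen with earlier results of these data known.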

Additional observations from a re-analysis of the deposited data

Results flagged for a closer look

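The Norrin difference of Lgr4 differed in sign between the stages. All 3 Norrin pools lay above the wild type mean at E10.5 and below it at E8.5, and the effect at E10.5 minus that at E8.5 was 0.83 (log2). The difference itself was tested and did not pass (limma interaction, adjusted p = 0.397, and 0.0838 with the replicate block). Over the 12 fits that left out an array it was 0.65 to 1.00, with adjusted p 0.180 to 0.855. The genotypes overlapped at E8.5, where the pair of replicate 3 differed by 0.09, in the other direction. The second Lgr4 probe set had an interaction of 0.24 (limma, adjusted p = 0.985 over 34945 probe sets). The share of all genes with Norrin pools on opposite sides in this way was not computed.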

How the results depend on the processing

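With the replicate block within the stage, genes called were 257 at E8.5 (14 in the main test), 2400 at E10.5 (741), of them 3 members (1), and 376 for the interaction (17); the block changed no other count of members, and could not be applied to the stage comparisons. Fitting each stage alone called 0 genes at E8.5 (951 at an unadjusted p under 0.05, where limma was the tool, and the other limma settings are given here) and 2 members at E10.5, Lrp5 and Ror2. The count of all genes in that E10.5 fit is not given here, so the 2 members cannot be set against it. eBayes with trend and robust called 22 genes at E8.5. Quantile normalization called 932 genes at E10.5, of them 2 members, and 29 interaction genes. The filter on dim genes called 8 interaction genes, and the mean of probe sets 37. Between stages, centring called 7156 genes in wild type, of them 2 members (Rnf43 higher and Ndp lower). The filter, which tests fewer genes, called 3815 genes in wild type and 3 members in Norrin. It gave no value for Ndp and Rnf43. Leaving out an array gave 1 to 20 genes at E8.5 (1 without Norrin E8.5 replicate 2, 2 without wild type E8.5 replicate 1, 6 without wild type E8.5 replicate 3 and 8 without wild type E10.5 replicate 3), 353 to 894 at E10.5 (353 without Norrin E10.5 replicate 3, 410 without Norrin replicate 1, 435 without wild type replicate 2 and 477 without wild type replicate 3), with 1 to 2 members, and 5 to 36 for the interaction (36 without wild type E8.5 replicate 3, 31 without Norrin E10.5 replicate 2, and 5 to 9 without Norrin E8.5 replicate 1 or 2, Norrin E10.5 replicate 3, wild type E8.5 replicate 1 or 2, or wild type E10.5 replicate 1 or 2). For E10.5 minus E8.5 in wild type it gave 4311 to 6285 genes, with 2 to 5 members (2 without E10.5 replicate 3).

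Some differences that were not called changed sign under other settings, without being called there. At E8.5 this gave Ndp 0.028 and Ryk −0.071 (quantile), Lrp5 0.012 (centred) and Lgr5 −0.025 (mean of probe sets). At E10.5 it gave Ndp −0.022 (centred) and Fzd4 0.067 (mean of probe sets). Between stages in wild type, centring and quantile normalization gave Lrp5 −0.089 and −0.056, Tspan12 −0.099 and −0.020, and Lgr5 −0.26 and −0.26. In Norrin they gave Tspan12 −0.16 and −0.034 and Lgr5 −0.041 and −0.030, and the mean of probe sets gave Ryk 0.020. With an array left out, the E8.5 ranges were Lrp5 −0.12 to 0.13, Tspan12 −0.29 to 0.43, Lgr5 −0.044 to 0.20, Ryk −0.19 to 0.27, Fzd4 −0.13 to 0.35 and Adgra2 −0.45 to 0.048. At E10.5 they were Ndp −0.029 to 0.034, Tspan12 −0.17 to 0.41, Ryk −0.041 to 0.24 and Fzd4 −0.17 to 0.022. Between stages they were Tspan12 −0.17 to 0.41 and Lgr5 −0.050 to 0.15 in wild type, and Tspan12 −0.16 to 0.56 in Norrin. The cause was not tested for these or for the counts above. Over the other alternatives Ror2 at E10.5 kept its call, at 0.82 to 0.90 (adjusted p 0.00107 to 0.0103). The median standard error of a Norrin difference was 0.16, and 3 arrays a group limit what can be detected.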
